A study of Mus musculus with 18 samples.

Results

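The comparison described here set TC1 tumour cells labelled sgNAT10 against wild-type TC1 cells, both grown in culture and profiled by RNA sequencing of extracted total RNA. Its members were chosen by label: the 3 wild-type and the 3 sgNAT10 TC1 cell libraries, 6 of the 18 libraries of the study, with the transcript rows of the deposited TC1 table summed for each gene. The study also holds 6 libraries of MCA205 cells, a mouse fibrosarcoma line, and 6 libraries of TC1 tumours taken 8 days after cells were implanted under the skin of mice, each again with 3 wild-type and 3 sgNAT10 samples. No drug or other agent is given for the cultured cells. The labels give neither the guide sequence nor whether the sgNAT10 cells are a clone or a pool, and they do not say whether the libraries of a group came from separate cultures, so the p-values below measure the spread between these libraries only.

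NAT10 is an acetyltransferase of the nucleolus that adds an acetyl group to cytidine in ribosomal, transfer and other RNAs. Cells grown from a tumour keep a set of developmental transcription factors, matrix genes and signalling genes that reflects their tissue of origin and their state. TC1 is usually described as a mouse lung epithelial cell line transformed with papillomavirus oncogenes and Ras, whereas its label here reads fibrosarcoma.

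Several defining markers of lung epithelium were at or near 0. Of 21 lung epithelial markers in the table, 11 stayed under 1 FPKM (fragments scaled for transcript length and library size) in all 6 libraries, and the surfactant gene Sftpc, the club cell gene Scgb1a1 and the lung transcription factor Nkx2-1 reached at most 0.101, 0.163 and 0.0573 FPKM. Other genes of that list were measured, among them Pdpn at 57.5 to 95.4 and Lyz2 at 24.0 to 97.7 FPKM, and the list summed to between 149 and 223 FPKM. Also present in every library were Napsa at 2.28 to 13.2, Abca3 at 6.0 to 7.3 and Cyp2f2 at 2.57 to 12.2 FPKM. The mesenchymal filament gene Vim lay between 972 and 1340 FPKM, and 8 of 15 fibroblast and mesenchymal markers were lower in the sgNAT10 libraries. RNA of other tissues was present in every library: 12 liver markers summed to between 776 and 1400 FPKM, with Alb at 277 to 479, and 12 intestine markers to between 179 and 623 FPKM. No liver or intestine marker was called different between the groups by the test below. The epithelial markers Krt8 and Epcam ranked the 6 libraries in the same order as the summed intestine markers, from wild-type replicate 2 with 73.8 FPKM of Krt8 to wild-type replicate 3 with 15.8 FPKM; neither was called, but both were lower without wild-type replicate 3 (adjusted p = 0.0212 and 0.025). The part of this RNA in the results below was not tested.

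The 6 libraries held between 51661298 and 59361779 estimated counts. RNA of the targeted gene, Nat10, measured 13.9, 14.1 and 15.9 FPKM without and 14.2, 12.4 and 11.7 FPKM with the guide. These groups overlapped, and the log2 change of -0.21 ± 0.11 (SE, n = 3 and 3; adjusted p = 0.161) was not called, so the RNA level gives no check of the label. Among the sgNAT10 libraries, replicates 2 and 3 lay closest together, and replicate 1 stood apart. The chi-square statistic of their counts divided by its degrees of freedom, which is near 1 where libraries differ by counting error only, was 11.71 between replicates 2 and 3 and 63.7 and 78.2 between replicate 1 and these.

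Of 18823 genes tested with edgeR, 2991 (15.9%) were higher and 4135 (22.0%) were lower in sgNAT10 cells at an adjusted p under 0.05, 37.9% in all. Changes of at least 2-fold were called for 908 genes that rose and 1421 that fell, and the median log2 change of all genes tested was -0.08. The groups did not overlap for 9553 genes, 50.8% of those tested. The number of genes called lower depended on single libraries: it was 2651 without wild-type replicate 1, 2516 without sgNAT10 replicate 2 and 2623 without sgNAT10 replicate 3. These shares are the background against which the counts of gene groups below are to be read.

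**Figure D1:**
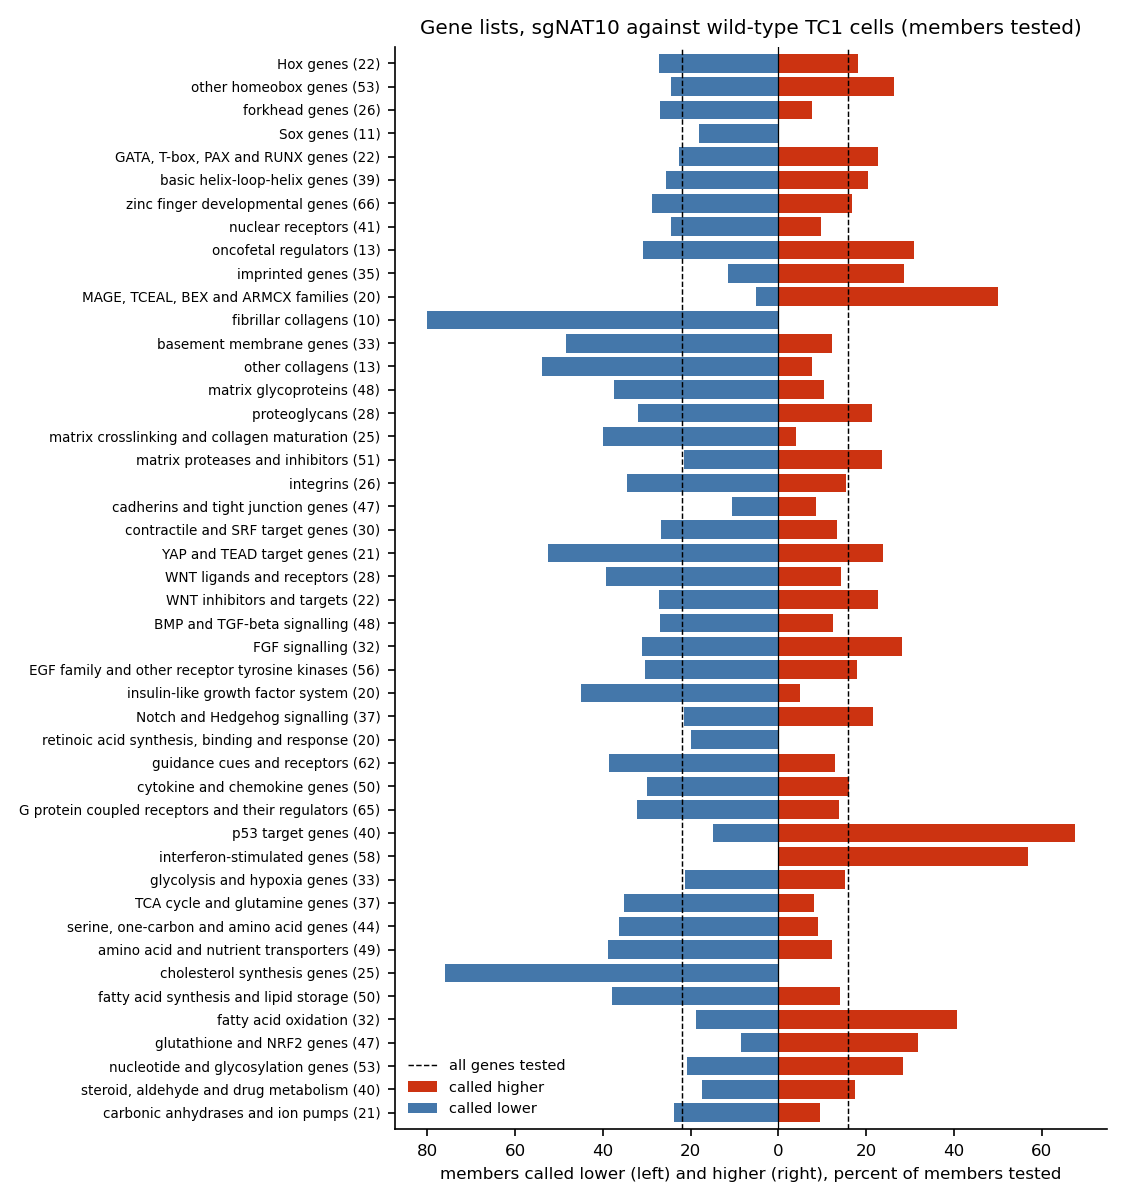
Share of the members of 46 gene lists called lower (left, blue) and higher (right, red) in sgNAT10 TC1 cells, in percent of the members tested, whose number stands in parentheses; dashed lines mark the 15.9% higher and 22.0% lower over all genes tested. Fibrillar collagens and cholesterol synthesis genes lie furthest to the left, and p53 target and interferon-stimulated genes furthest to the right.

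Developmental regulators were among the genes that were switched almost entirely. A gene was counted as lost where it was called lower, its groups did not overlap, its wild-type mean was at least 5 FPKM and its sgNAT10 mean was under 0.5 FPKM, and as gained in the mirror case. By this rule 38 genes were lost, 0.202% of those tested, and 19 were gained, 0.101%. Just inside the limit for lost genes was Pcdh19 at 5.01 FPKM in wild-type cells and just outside Clec2f at 4.97; on the low side Gm44275 at 0.468 FPKM in sgNAT10 cells was inside and Nsg1 at 0.562 outside. For gained genes Gm15731 at 5.06 FPKM was inside and Ano3 at 4.72 outside, and Itpkb at 0.496 FPKM in wild-type cells was inside and Prkar1b at 0.563 outside.

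Lost transcription factors included Barx1, a homeobox factor known for its role in the stomach mesenchyme, and Sox2, a factor of stem cells and of the foregut. Barx1 measured 7.53, 7.70 and 8.66 FPKM in wild-type cells and 0, 0.0653 and 0.0622 FPKM in sgNAT10 cells. Sox2 measured 7.30, 9.99 and 9.31 FPKM and then 0.0449, 0.153 and 0.0763 FPKM. In both genes every wild-type library stood far above every sgNAT10 library, with log2 changes of -7.47 ± 0.61 (SE; adjusted p = 0.000193) and -6.55 ± 0.40 (adjusted p = 6.36e-05). Of the 11 Sox genes tested, Sox4 was the only other one called, at 30.0 against 18.3 FPKM; Sox9 was not called at 20.9 and 21.9 FPKM, but was higher without sgNAT10 replicate 1 (log2 0.28; adjusted p = 0.00653). Dppa2, a gene of pluripotent cells, was lost as well, from a mean of 5.20 to 0.123 FPKM.

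The largest fall by log2 change among genes of at least 10 FPKM was that of Crabp1, which binds retinoic acid in the cytosol. It measured 484, 578 and 571 FPKM in wild-type cells and 3.48, 2.55 and 1.88 FPKM in sgNAT10 cells. The wild-type mean was 206-fold the sgNAT10 mean (log2 -7.73 ± 0.25, SE; adjusted p = 8.37e-06), with no overlap of the groups. Of 20 genes of retinoic acid synthesis, binding and response, 4 were lower and none was higher; the others named by the rule were Tgm2, a transglutaminase induced by retinoic acid, and Rdh10, which oxidises retinol. The receptor gene Rara was not called at 11.8 and 12.5 FPKM, but was higher without sgNAT10 replicate 1 (log2 0.33; adjusted p = 0.00646).

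In the HoxB cluster the change ran along the chromosome. Hox genes encode transcription factors that set position along the body axis, and their order in a cluster follows that axis. Hoxb9, towards the posterior end of the cluster, had 62.3, 59.4 and 69.0 FPKM in wild-type and 0.680, 0.717 and 0.648 FPKM in sgNAT10 cells, a 93.2-fold lower mean (log2 -6.58 ± 0.10, SE; adjusted p = 1.21e-06). Its neighbour Hoxb8 fell from a mean of 13.0 to 1.79 FPKM, and the next, Hoxb7, from 1.13 to 0.370 FPKM, both with groups that did not overlap. Further along the cluster Hoxb6, Hoxb5, Hoxb4 and Hoxb2 were not called, Hoxb4 was higher without wild-type replicate 3 or sgNAT10 replicate 1 (adjusted p = 0.0239 and 0.0368), and Hoxb3 was lower by a log2 change of -0.42 (edgeR adjusted p = 0.0442), a call lost without any 1 library except wild-type replicate 1 (adjusted p of 0.148 to 0.211). The rows of Mir196a-1 and Gm53, which lie beside Hoxb9, fell from 3.33 to 0 and from 5.57 to 0.150 FPKM. By their annotated spans these rows do not overlap each other or Hoxb9. Whether the counting used strand is not given, so rows that do overlap further along the cluster may share reads. Of the 22 Hox genes tested, 6 were lower and 4 were higher, a share lower of 27.3% against 22.0% of all genes.

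Genes of the HoxA cluster were among the higher Hox genes. Hoxa5, which takes part in lung development, had 4.25, 4.10 and 4.24 FPKM in wild-type and 11.5, 12.8 and 12.2 FPKM in sgNAT10 cells (log2 1.49 ± 0.09, SE; adjusted p = 6.36e-05). Hoxa2 and Hoxa3 rose by log2 changes of 1.12 and 1.17. Hoxa7 was not called at 11.4 and 10.4 FPKM.

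Single factors of the zinc finger, forkhead and homeobox families fell. Osr1, a zinc finger factor of the heart and kidney mesoderm, fell from 29.3, 22.5 and 19.2 to 1.29, 2.01 and 1.46 FPKM (log2 -3.76 ± 0.19, SE; adjusted p = 3.08e-05). Snai2, a repressor of epithelial genes in mesenchymal transition, fell from between 19.9 and 20.3 to 3.84, 3.67 and 3.70 FPKM (log2 -2.47 ± 0.07; adjusted p = 7.62e-06), while its relative Snai1 was not called at 17.7 and 20.5 FPKM. The groups were far apart for Osr1 and Snai2, and those of Snai2 were tight. The forkhead genes Foxc2 and Foxl1, which act in mesenchyme, fell from means of 8.81 to 0.996 and 6.79 to 0.739 FPKM, and the homeobox gene Irx5 from 3.43 to 0.510 FPKM. Of 66 developmental zinc finger genes 19 were lower and 11 higher, and of 53 homeobox genes outside the Hox clusters 13 were lower and 14 higher. The shares lower were 28.8% of the zinc finger, 26.9% of 26 forkhead and 24.5% of the homeobox genes, against 22.0% of all genes.

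Other regulators rose. Tbx5, a T-box factor of the heart, forelimb and lung, had 0.788, 0.822 and 0.777 FPKM in wild-type and 6.66, 8.25 and 6.96 FPKM in sgNAT10 cells (log2 3.22 ± 0.11, SE; adjusted p = 1.01e-05), and Tbx4, Tbx3 and Gata2 rose by log2 changes of 1.40, 0.85 and 0.89. Id1, an inhibitor of helix-loop-helix factors induced by BMP signals, had 28.2, 29.0 and 31.9 FPKM in wild-type and 218, 232 and 231 FPKM in sgNAT10 cells (log2 2.92 ± 0.07; adjusted p = 3.45e-06). The groups of Tbx5 and Id1 did not overlap. Id3 rose from 17.2 to 84.0 FPKM, and Hes1, a repressor induced by Notch, from 2.88 to 20.6 FPKM.

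Gained regulators were Zbtb7c and Plagl1, zinc finger factors, and Mdfi, an inhibitor of myogenic factors. Zbtb7c had 0.0322, 0.0296 and 0.103 FPKM in wild-type and 4.70, 9.23 and 8.82 FPKM in sgNAT10 cells. Plagl1, an imprinted gene, had 0.0487, 0.0603 and 0.168 FPKM and then 2.69, 7.0 and 7.33 FPKM. Replicate 1 was the lowest sgNAT10 library for both genes, and still lay above every wild-type library. Of 35 imprinted genes tested, 10 were higher and 4 lower, with a median log2 change of 0.46 against -0.08 for all genes; Cd81, a tetraspanin, rose from 42.9 to 96.2 FPKM and Grb10, an adaptor that restrains insulin signalling, fell from 65.0 to 39.3 FPKM, while H19 was not called at 48.2 and 78.0 FPKM, but was higher without wild-type replicate 1 (adjusted p = 0.0354).

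**Figure D2:**
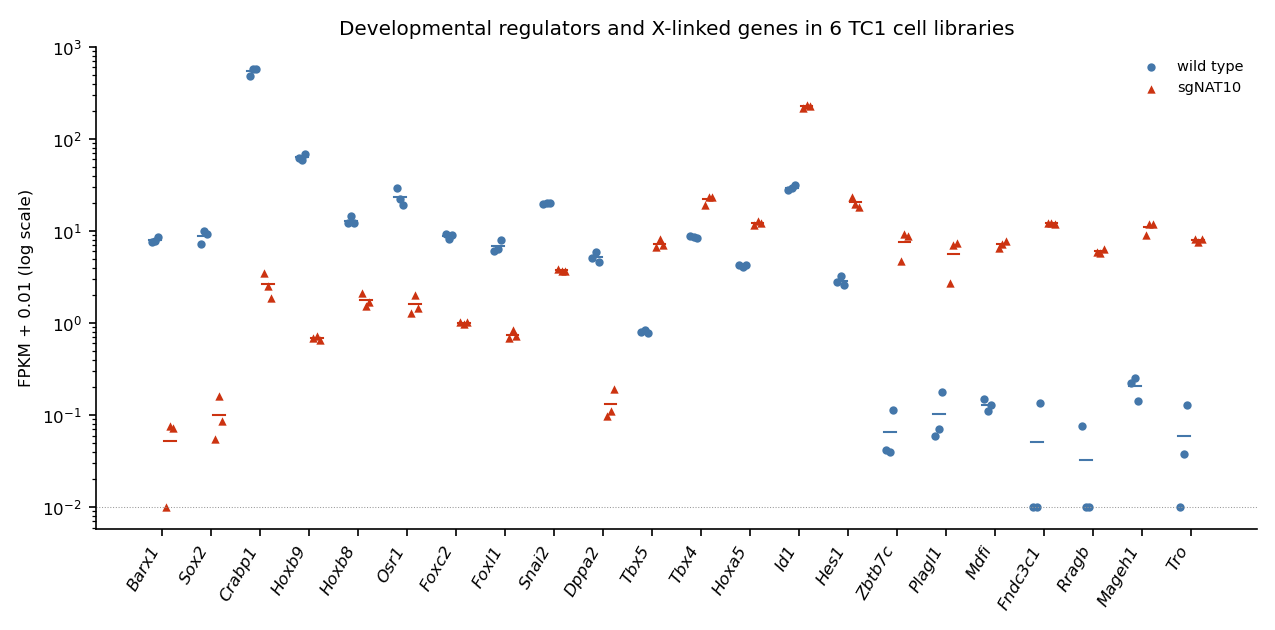
FPKM + 0.01 on a log scale for 22 regulators and X-linked genes in the 3 wild-type (blue circles) and 3 sgNAT10 (red triangles) TC1 cell libraries; short lines are group means and the dotted line marks a value of 0. Barx1 to Dppa2 sit lower and Tbx5 to Tro sit higher in every sgNAT10 library.

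Genes of chromosome X made up 4 of the 19 gained genes: Fndc3c1, Rragb, Mageh1 and Tro. The chromosome holds 602 of the 18823 genes tested and 3 of the 38 lost genes. Rragb encodes a Rag GTPase that brings the kinase mTORC1 to the lysosome when amino acids are present, and Mageh1 and Tro belong to the MAGE family. Mageh1 and Rragb lie close together, within chrX:153006469-153171943 (mm10), where 4 neighbouring tested genes, with Usp51 and 9530051G07Rik, all rose. The promoters of Rragb, Mageh1 and Fndc3c1, which lies elsewhere on the chromosome, from RefSeq (GRCm38.p6, the build also called mm10), each 250 bases before to 50 after the start and written along the gene, are shown because these 3 genes were gained; capitals mark CG, the dinucleotide at which DNA is methylated.
Fndc3c1, chrX:106485180-106485479, minus strand: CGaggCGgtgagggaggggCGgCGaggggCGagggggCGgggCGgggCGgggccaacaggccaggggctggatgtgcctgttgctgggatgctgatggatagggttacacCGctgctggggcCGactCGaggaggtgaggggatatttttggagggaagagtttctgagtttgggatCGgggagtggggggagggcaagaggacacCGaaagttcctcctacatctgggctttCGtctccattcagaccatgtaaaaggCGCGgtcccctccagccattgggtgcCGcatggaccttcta
Rragb, chrX:153139708-153140007, plus strand: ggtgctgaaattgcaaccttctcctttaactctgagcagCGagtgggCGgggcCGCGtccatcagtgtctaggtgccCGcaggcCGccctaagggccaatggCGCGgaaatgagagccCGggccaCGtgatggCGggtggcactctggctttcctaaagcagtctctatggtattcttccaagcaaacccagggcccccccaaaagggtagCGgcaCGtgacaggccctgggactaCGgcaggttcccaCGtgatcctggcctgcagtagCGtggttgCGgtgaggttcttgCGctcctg
Mageh1, chrX:153037514-153037813, minus strand: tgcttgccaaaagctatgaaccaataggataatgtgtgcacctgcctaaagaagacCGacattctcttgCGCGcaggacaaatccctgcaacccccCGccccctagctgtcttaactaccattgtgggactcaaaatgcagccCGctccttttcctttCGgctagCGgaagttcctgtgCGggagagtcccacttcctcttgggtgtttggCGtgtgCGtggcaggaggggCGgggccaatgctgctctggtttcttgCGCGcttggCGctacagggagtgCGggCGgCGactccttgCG
The promoter of Fndc3c1 held 17 CG dinucleotides, and those of Rragb and Mageh1 held 18 each. Over the 13 gained genes with a promoter in the table the median number of CG was 18, against 20 over 12507 tested genes; methylation itself was not measured in the files used here.

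The levels of these genes changed from near 0. Fndc3c1 had 0, 0 and 0.124 FPKM in wild-type and 12.3, 12.3 and 11.8 FPKM in sgNAT10 cells (adjusted p = 0.000663). Rragb had 0.0667, 0 and 0 FPKM and then 5.94, 5.75 and 6.43 FPKM (adjusted p = 0.000761). Mageh1 had 0.215, 0.244 and 0.131 FPKM and then 9.04, 11.8 and 12 FPKM (adjusted p = 2.93e-05). No wild-type library reached the level of any sgNAT10 library. Of 20 tested genes of the X-linked MAGE, TCEAL, BEX and ARMCX families 10 were higher and 1 was lower, with a median log2 change of 0.74; Maged2, which was already abundant, rose from 33.4 to 66.0 FPKM, and Tceal9 was not called at 90.6 and 122 FPKM, but was higher without sgNAT10 replicate 1 (log2 0.65; adjusted p = 0.000862).

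Genes of the testis and other germ cell or tissue-restricted genes stood among the lost genes. Tex13b, on chromosome X, had 8.27, 13.4 and 14.4 FPKM in wild-type and 0.137, 0.120 and 0.0408 FPKM in sgNAT10 cells, and Aire, the factor that drives tissue-restricted genes in the thymus, had 10.4, 12.1 and 8.21 FPKM and then 0.0616, 0.344 and 0.102 FPKM. Neither gene had a library that crossed into the other group.

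Some of the largest changes were shared by neighbouring genes. On chromosome 5, 12 tested genes in a row, chr5:8037294-8866315 (mm10), were all higher by more than 4-fold. Their median log2 change was 4.26 and the range 2.82 to 7.90, the highest being Gm42685, at 0 and 0.197 FPKM. Gm15731 overlaps Sri, Gm42685 lies within Rundc3b, Gm42686 within Abcb1a, and Gm5106 and 7330423F06Rik overlap Abcb1b. Overlapping rows may share reads, so the run may hold fewer separate changes than genes. Over the wider stretch chr5:8037294-9161776, 1.12 Mb, 15 of 17 tested genes were higher, and Abcb4 and Gm17936 were not called; Abcb4 was higher without wild-type replicate 2 (adjusted p = 0.0304). Runs of neighbours were looked for after values had been seen, so they are a description, and genes in and beside them are named for their position.

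Sri, a calcium-binding protein near the start of the stretch, had 32.3, 32.0 and 35.9 FPKM in wild-type and 602, 640 and 662 FPKM in sgNAT10 cells. Dbf4, the activating subunit of the replication kinase CDC7, had 41.3, 40.2 and 50.6 FPKM and then 838, 881 and 887 FPKM. The drug efflux pump gene Abcb1a had 3.58, 3.48 and 3.29 FPKM and then 72.8, 85.8 and 87.3 FPKM. For each of these 3 genes the sgNAT10 mean was about 20 times the wild-type mean: 19-fold for Sri (log2 4.22 ± 0.08, SE; adjusted p = 1.81e-06), 19.7-fold for Dbf4 (4.25 ± 0.11; adjusted p = 3.45e-06) and 23.7-fold for Abcb1a (4.54 ± 0.09; adjusted p = 1.81e-06). Slc25a40, a mitochondrial carrier, rose 17.9-fold, Rundc3b 20.4-fold, Crot, a peroxisomal acyltransferase, 18.5-fold, and Tmem243 18.7-fold, although their levels in wild-type cells ran from 3.21 to 16.3 FPKM. The second pump gene Abcb1b rose 12.8-fold, and Dmtf1, at the far end, 3.82-fold. Steap4, next to the stretch, was not called at 1.48 and 2.36 FPKM, but was higher without wild-type replicate 1 (adjusted p = 0.0184).

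The same genes did not rise in the other sgNAT10 groups. In MCA205 cells 15 of the 17 genes were tested with none higher and 5 lower, where 21.2% of genes were higher and 19.4% lower, and in TC1 tumours 15 were tested with none higher and 1 lower, where 7.65% of genes were higher and 9.72% lower. Dbf4 measured 51.2, 57.0 and 45.3 FPKM in wild-type tumours and 25.1, 26.3 and 27.8 FPKM in sgNAT10 tumours. The difference between the effect in tumours and that in cells was -5.43 on the log2 scale for Dbf4 and -4.37 for Sri (adjusted p = 1.2e-07 for each). DNA copy number was not measured in the files used here.

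**Figure D3:**
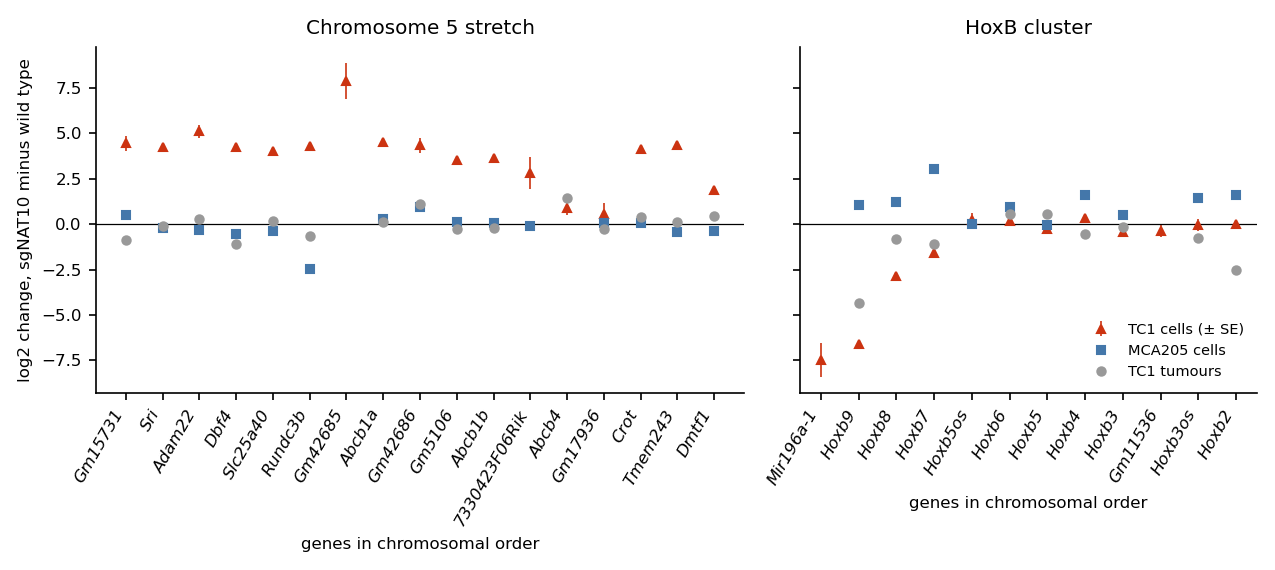
Log2 change of sgNAT10 against wild type for genes in chromosomal order, in the chromosome 5 stretch (left) and the HoxB cluster (right), for TC1 cells (red triangles, with SE), MCA205 cells (blue squares) and TC1 tumours (grey circles). In TC1 cells 15 of the 17 chromosome 5 genes were called higher, Abcb4 and Gm17936 were not, and the HoxB genes fall most at the end with Hoxb9, with Hoxb3 slightly lower.

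A second group of neighbours surrounded Myc. In chr15:61184151-62378096 (mm10) 5 of 6 tested genes were higher, among them Pvt1, a long noncoding RNA beside Myc, with 15.1, 14.1 and 16.9 FPKM in wild-type and 286, 316 and 325 FPKM in sgNAT10 cells (20.1-fold; log2 4.17 ± 0.11, SE; adjusted p = 4.01e-06). Macroh2a3, a processed pseudogene that lies within Pvt1, was counted as gained and rose from 0.0708 to 6.21 FPKM. Its row and that of Pvt1 may share reads, so it need not be a separate change. Myc, which lies beside Pvt1, was the exception: it had 243, 209 and 235 FPKM and then 156, 191 and 197 FPKM (log2 -0.42 ± 0.09; edgeR adjusted p = 0.0103). Myc no longer passed the test after leaving out wild-type replicate 1 (adjusted p = 0.0921) or 3 (0.0731) and without sgNAT10 replicate 2 (0.0734) or 3 (0.051). Pvt1 was not called in tumours at 12 and 10.4 FPKM and rose in MCA205 cells from 10.7 to 15.9 FPKM.

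Runs of at least 4 neighbours that changed at least 4-fold the same way were found at 10 places in all. Among the lower runs were 5 zinc finger genes on chromosome 4, among them Zfp979, which fell from 10.9 to 0.262 FPKM; 7 protocadherin genes on chromosome 18, Pcdhb16 to Pcdhb22, all under 1 FPKM, of which Pcdhb22 lost its call without any 1 library except sgNAT10 replicate 2 (adjusted p of 0.059 to 0.19); Mmp2 and Lpcat2 with 2 further genes on chromosome 8; and 13 genes around Luzp4 and Ott on chromosome X, with a median log2 change of -6.95 over 2.22 Mb. The zinc finger genes and the genes around Luzp4 have near-identical copies among which reads can be split, so their single values are uncertain.

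Genes of chromosomes 16 and 17 were shifted on balance along the chromosome. The median log2 change of the 566 tested genes of chromosome 16 lay 0.45 above that of all genes, and 41.3% of them were called higher and 8.66% lower. The 3 sgNAT10 libraries were shifted by 0.45, 0.43 and 0.47 against the wild-type mean, while the wild-type libraries lay between -0.01 and 0.01. All 6 windows of 15 Mb on chromosome 16 with at least 20 genes were shifted upward, by medians of 0.15 to 0.54. Chromosome 17 lay at -0.28 against all genes, with 6.18% of its 922 genes higher and 37.9% lower, and its 6 windows had medians of -0.47 to -0.28. The mitochondrial chromosome M lay at -0.5 against all genes, with 61.8% of its 34 tested genes lower and none higher. Its sgNAT10 libraries were shifted by -0.41, -0.65 and -0.6, and its wild-type libraries by -0.11, 0.06 and 0.05. Chromosome 12 lay 0.21 above all genes but not throughout: in its window chr12:30000001-45000000 (mm10) the median was -0.36, with 20 of 56 genes lower and 4 higher. Before the median of all genes is subtracted, as for the windows, chromosome 16 had a median log2 change of 0.37 in TC1 cells. In MCA205 cells it was -0.01 and in tumours -0.0. Chromosome 17 had -0.37 in TC1 cells, -0.16 in MCA205 cells and -0.28 in tumours. These chromosome medians were chosen after the values had been seen, and the genes of a chromosome are not replicates.

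**Figure D4:**
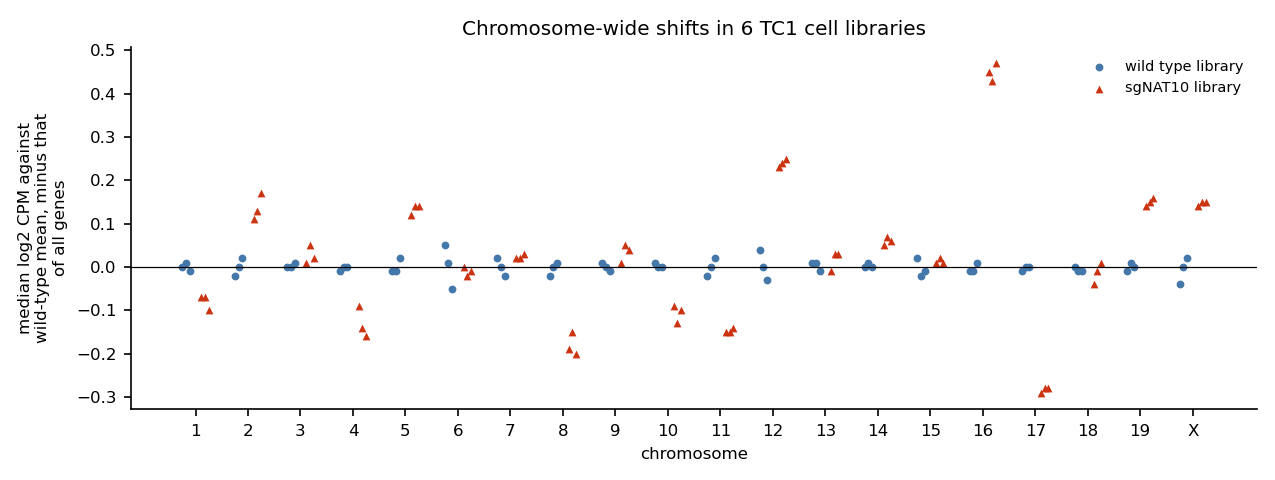
Median over the tested genes of each chromosome except Y and M of the log2 counts scaled to library size against the wild-type mean, minus the same median over all genes, for each wild-type (blue circles) and sgNAT10 (red triangles) TC1 cell library. The 3 sgNAT10 libraries lie together at 0.43 to 0.47 on chromosome 16 and at -0.29 to -0.28 on chromosome 17.

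Of 10 fibrillar collagen genes tested 8 were lower and none higher, a share lower of 80% against 22.0% of all genes, with a median log2 change of -2.00. Col5a2, a chain of type V collagen, had 31.3, 38.1 and 34.7 FPKM in wild-type and 0.348, 0.423 and 0.376 FPKM in sgNAT10 cells (log2 -6.53 ± 0.12, SE; adjusted p = 1.81e-06). Col1a2, a chain of type I collagen, had 84.5, 114 and 92.2 FPKM and then 1.08, 1.90 and 1.38 FPKM (log2 -6.11 ± 0.25; adjusted p = 1.76e-05). No sgNAT10 library came near the lowest wild-type library for either gene. Col3a1 fell from 27.2 to 2.84 FPKM, whereas Col5a1 was not called at 21.9 and 26.0 FPKM and was higher without sgNAT10 replicate 1 (log2 0.41; adjusted p = 0.00436). The other chain of type I collagen, Col1a1, was low in wild-type cells at 2.37 FPKM, its groups overlapped, and its call held without wild-type replicate 3 and was lost without any 1 of the other libraries (adjusted p of 0.0602 to 0.129).

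Collagens of other types followed: 7 of 13 were lower and 1 higher, with Col6a2 at 21.3 and 1.98 FPKM and Col6a1 at 46.8 and 19.7 FPKM. Enzymes that modify and crosslink collagen were lower for 10 of 25 genes and higher for 1. Plod1, a lysyl hydroxylase, fell from 38.8 to 11.4 FPKM and Adamts14, which trims procollagen, from 15.5 to 3.34 FPKM, while the collagen chaperone Serpinh1 was not called at 365 and 390 FPKM.

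Proteoglycans and glycoproteins of the matrix held some of the most abundant genes that fell. Bgn encodes biglycan, a small leucine-rich proteoglycan that binds collagen, and had 291, 308 and 288 FPKM in wild-type and 5.43, 7.14 and 5.46 FPKM in sgNAT10 cells (49.2-fold lower mean; log2 -5.65 ± 0.13, SE; adjusted p = 2.82e-06). Thbs2, thrombospondin 2, had 17.8, 21 and 18.3 FPKM and then 0.138, 0.262 and 0.232 FPKM (log2 -6.56 ± 0.21; adjusted p = 8.87e-06), and was a lost gene. The groups stood apart for both genes in every library. Of 48 glycoproteins 18 were lower and 5 higher, among them Fbln5, which assembles elastic fibres, and Tnc, tenascin C, at 12.3 and 1.32 FPKM. Of 28 proteoglycans 9 were lower and 6 higher; Sdc4, a cell surface syndecan, rose from 39.8 to 115 FPKM. Dcn, decorin, was not called, at 39.5, 5.02 and 3.40 FPKM in wild-type and 3.11, 2.49 and 2.26 FPKM in sgNAT10 cells; it was lower without wild-type replicate 2 or 3 (adjusted p = 0.0482 and 0.0299).

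Basement membrane genes were lower for 16 of 33 and higher for 4. Col4a1 fell from 125 to 61.4 FPKM and Sparc, which binds collagen, from 223 to 96.6 FPKM. Agrn and the laminin chain Lamb2 moved the other way, from 19.8 to 52.7 and from 8.30 to 20.3 FPKM, with sgNAT10 replicate 1 the lowest of its group for each. The count of lower basement membrane genes was 10 without sgNAT10 replicate 3. Among 51 matrix proteases and inhibitors 12 were higher (23.5%) and 11 lower (21.6%), against 15.9% and 22.0% of all genes. Without sgNAT10 replicate 3, 7 of them were lower. Mmp2, a gelatinase, fell from 15.4, 14.4 and 15 to 0.752, 0.498 and 0.703 FPKM (log2 -4.69 ± 0.14, SE; adjusted p = 8.18e-06), and Adamtsl3 rose from 0.107 to 4.24 FPKM. Of 26 integrins 9 were lower, among them Itgb1, the common beta chain, at 215 and 125 FPKM, and 4 were higher, among them Itga6 at 25.4 and 51.9 FPKM.

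Secreted signals and their antagonists fell in several pathways. Grem1, an antagonist of BMP ligands, had 105, 61.9 and 73.0 FPKM in wild-type and 0.802, 0.794 and 0.779 FPKM in sgNAT10 cells (log2 -6.70 ± 0.23, SE; adjusted p = 1.03e-05). Fst, which binds activin, fell from 28.2 to 6.89 FPKM, and the ligands Inhba and Bmp4 from 5.45 to 1.83 and from 6.80 to 3.26 FPKM. Every sgNAT10 library lay below every wild-type library for these 4 genes. Over the 48 BMP and TGF-beta genes 13 were lower (27.1%, against 22.0% of all genes) and 6 higher, and 8 were lower without sgNAT10 replicate 3.

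Dkk2, a WNT antagonist, was a lost gene with 7.60, 9.33 and 6.89 FPKM in wild-type and 0.0847, 0.0956 and 0.135 FPKM in sgNAT10 cells (log2 -6.24 ± 0.23, SE; adjusted p = 1.28e-05). The receptor gene Fzd2 fell from 13.6 to 4.61 FPKM, and Notum, which inactivates WNT proteins, rose from 1.59 to 6.41 FPKM. Of 28 WNT ligands and receptors 11 were lower and 4 higher; the lower count was 6 or 7 without any 1 library other than wild-type replicate 3. Ctnnb1, beta-catenin, rose from 93.1 to 154 FPKM, and the WNT target Ccnd1 was not called at 210 and 223 FPKM.

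Among 32 FGF genes 10 were lower and 9 higher. Fgf21, a hormone of nutrient stress, had 17.1, 11.1 and 11.8 FPKM in wild-type and 0.247, 0.152 and 0.183 FPKM in sgNAT10 cells (log2 -6.04 ± 0.29, SE; adjusted p = 2.93e-05), and Fgf10, a mesenchymal ligand of lung and limb, fell from 4.35 to 0.181 FPKM. The MAP kinase phosphatase gene Dusp4 rose from 10.3 to 49.2 FPKM, while Dusp6, Etv4 and Etv5, targets of the same pathway, were not called at 39.1, 55.8 and 27.3 FPKM in wild-type cells. Etv5 was higher without wild-type replicate 3 or sgNAT10 replicate 1 (adjusted p = 0.0474 and 0.0389). Of 56 EGF family and other receptor tyrosine kinase genes 17 were lower and 10 higher. The ligand genes Nrg1, Bdnf and Kitl fell from 10.6 to 1.26, 5.66 to 0.845 and 16.8 to 5.14 FPKM, and Tgfa rose from 1.52 to 8.86 FPKM. Angptl4, an angiopoietin-like gene counted in this list, rose from 5.81 to 43.0 FPKM, and any link to these receptors was not tested.

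In the Notch pathway the ligands moved in opposite directions. Jag2 rose from 0.586, 0.628 and 0.865 to 10.7, 11.6 and 12.9 FPKM (log2 4.18 ± 0.14, SE; adjusted p = 9.61e-06), and Jag1 fell from 5.40, 5.42 and 5.91 to 1.06, 1.10 and 1.19 FPKM (log2 -2.38 ± 0.09; adjusted p = 1.67e-05). Neither gene showed overlap between the groups. The receptor gene Notch1 rose from 1.93 to 8.27 FPKM alongside the target Hes1. Over 37 Notch and Hedgehog genes 8 were higher and 8 lower, 21.6% each, against 15.9% and 22.0% of all genes.

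Genes of the insulin-like growth factor system were lower for 9 of 20 and higher for 1. The binding protein genes Igfbp6 and Igfbp4 fell from 61.6 to 20.4 and from 41.8 to 19.6 FPKM, and the adaptor gene Irs2 from 15.7 to 7.30 FPKM. Of 62 guidance cues and receptors 24 were lower and 8 higher; the semaphorins Sema3a and Sema5a and the slit gene Slit2 were lost, from 9.92, 7.21 and 6.12 FPKM to 0.362, 0.251 and 0.437 FPKM. Of 21 targets and partners of YAP and TEAD, the pair that reads out cell tension, 11 were lower and 5 higher, with Ccn1 at 339 and 178 FPKM and Ankrd1 at 149 and 57.8 FPKM, while Yap1 and Wwtr1 themselves were among the 5 higher.

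Il1rl1, which encodes the receptor of interleukin 33, had 154, 41.6 and 71.7 FPKM in wild-type and 0.844, 0.744 and 0.429 FPKM in sgNAT10 cells (log2 -7.0 ± 0.54, SE; adjusted p = 0.000165). The wild-type libraries were spread, but the lowest of them was above 40 FPKM. The cytokine Il34 fell from 25.5 to 1.90 FPKM and the co-stimulatory receptor gene Tnfrsf9 from 38.7 to 3.03 FPKM. Of 50 cytokine and chemokine genes 15 were lower and 8 higher, and 9 were lower without wild-type replicate 1 or without sgNAT10 replicate 2 or 3.

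Of 40 p53 target genes 27 were higher and 6 lower, with a median log2 change of 0.96. Perp, a junction protein of the p53 response, had 4.59, 6.25 and 3.18 FPKM in wild-type and 36.3, 41.7 and 38.4 FPKM in sgNAT10 cells (log2 3.01 ± 0.23, SE; adjusted p = 0.000163), and Sulf2, a sulfatase of heparan sulfate, rose from 15.4 to 127 FPKM. Gadd45a went the other way, from 115, 82.1 and 91.9 to 4.65, 11.5 and 12 FPKM (log2 -3.43 ± 0.34; adjusted p = 0.000432). In all 3 genes the groups were apart.

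Of 58 interferon-stimulated genes 33 were higher and none lower by edgeR, with a median log2 change of 2.08, but the libraries of each group were not alike. Wild-type replicate 1 was the highest of its group for 55 of the 58 genes, and sgNAT10 replicate 1 was the lowest of its group for 55. The antiviral gene Ifit3 had 12.3, 3.51 and 3.55 FPKM in wild-type and 14.9, 95.9 and 95.5 FPKM in sgNAT10 cells, and Isg15 had 59.1, 11.4 and 14.1 FPKM and then 83.3, 323 and 341 FPKM. The groups of both genes were apart, by a narrow gap between the replicates numbered 1. Without wild-type replicate 2 or 3 or sgNAT10 replicate 2 the adjusted p of Ifit3 was 0.0566, 0.0544 and 0.0502, and that of Isg15 was 0.054, 0.0604 and 0.0585; without sgNAT10 replicate 3 it was 0.0481 for Ifit3 and 0.0569 for Isg15. The count of higher genes was 16 without wild-type replicate 2, 20 without wild-type replicate 3, 16 without sgNAT10 replicate 2 and 17 without sgNAT10 replicate 3, and 44 without wild-type replicate 1 and 40 without sgNAT10 replicate 1. The chemokine gene Cxcl10 was not called, at 187, 12.3 and 21.2 FPKM and 42.0, 131 and 139 FPKM, but was higher without wild-type replicate 1 (adjusted p = 0.021).

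Of 44 genes of serine, one-carbon and amino acid metabolism 16 were lower and 4 higher, and of 49 amino acid and nutrient transporters 19 were lower and 6 higher. Asns, which makes asparagine, had 273, 218 and 233 FPKM in wild-type and 69.6, 51.0 and 51.2 FPKM in sgNAT10 cells (log2 -2.12 ± 0.16, SE; adjusted p = 0.000135). Pycr1, the last enzyme of proline synthesis, had 68.0, 59.5 and 65.0 FPKM and then 8.35, 7.64 and 7.45 FPKM (log2 -3.10 ± 0.08; adjusted p = 3.45e-06). Each group kept to a narrow range for both genes. Cth, which makes cysteine, fell from 90.1 to 15.3 FPKM, Psph, of serine synthesis, from 87.8 to 19.3 FPKM, and Mthfd2, a mitochondrial folate enzyme, from 107 to 33.4 FPKM. Among transporters Slc1a4 fell from 33.5 to 5.43 FPKM, the glycine carrier gene Slc6a9 from 43.4 to 7.99 FPKM and the cystine carrier gene Slc7a11 from 7.64 to 1.25 FPKM. The transporter count was 12 without wild-type replicate 1 or without sgNAT10 replicate 2 or 3.

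Many of these genes are known targets of ATF4, the transcription factor of the amino acid response. Atf4 itself fell from a mean of 391 to 146 FPKM and its partner gene Ddit3 from 65.9 to 22.7 FPKM; these 2 genes were named after their values had been seen. A sequence read by ATF4 dimers was searched as TGATGNAAN on both strands of the RefSeq promoters (GRCm38.p6). It occurred in 4.50% of 27025 genes, in 2.78% of 12507 tested genes, in 3.55% of the lower genes and in 2.18% of the higher genes. Among the amino acid synthesis and transporter genes it was found for 4 of 24 lower genes with a promoter in the table (Asns, Pycr1, Slc1a4 and Slc7a11), for 1 of 34 genes not called (Slc7a7, lower without wild-type replicate 3, adjusted p = 0.0492) and for 0 of 10 higher genes. The promoters of 3 of these and of Fgf21, another gene with the motif, are printed along the gene with the motif in capitals, since these genes fell together.
Asns, chr6:7693160-7693459, minus strand: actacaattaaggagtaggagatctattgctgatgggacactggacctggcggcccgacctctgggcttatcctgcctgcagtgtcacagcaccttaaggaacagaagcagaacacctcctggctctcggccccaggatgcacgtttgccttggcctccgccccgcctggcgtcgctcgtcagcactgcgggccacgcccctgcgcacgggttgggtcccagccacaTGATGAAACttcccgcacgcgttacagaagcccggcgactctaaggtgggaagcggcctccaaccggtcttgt
Pycr1, chr11:120643699-120643998, minus strand: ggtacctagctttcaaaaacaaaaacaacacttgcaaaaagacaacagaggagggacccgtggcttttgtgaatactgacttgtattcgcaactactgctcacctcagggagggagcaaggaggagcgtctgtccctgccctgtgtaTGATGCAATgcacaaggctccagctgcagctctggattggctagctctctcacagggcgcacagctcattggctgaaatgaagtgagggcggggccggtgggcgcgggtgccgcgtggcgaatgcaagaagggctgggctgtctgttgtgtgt
Slc7a11, chr3:50443564-50443863, minus strand: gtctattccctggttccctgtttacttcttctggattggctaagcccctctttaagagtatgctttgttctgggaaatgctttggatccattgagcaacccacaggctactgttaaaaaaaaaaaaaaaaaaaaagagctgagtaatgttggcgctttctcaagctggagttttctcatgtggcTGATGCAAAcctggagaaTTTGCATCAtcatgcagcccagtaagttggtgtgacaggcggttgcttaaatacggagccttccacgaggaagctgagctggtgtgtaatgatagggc
Fgf21, chr7:45615441-45615740, minus strand: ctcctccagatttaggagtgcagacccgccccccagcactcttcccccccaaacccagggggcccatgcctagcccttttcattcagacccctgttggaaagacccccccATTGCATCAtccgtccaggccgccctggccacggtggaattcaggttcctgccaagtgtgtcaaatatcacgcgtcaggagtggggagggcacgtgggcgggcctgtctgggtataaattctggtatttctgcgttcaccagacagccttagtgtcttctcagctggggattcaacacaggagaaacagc
The motif lay on the strand of the gene in Asns and Pycr1, on the other strand in Fgf21, and on each strand in turn in Slc7a11. A match is a description of these letters and not a measured binding site. The lists and the motif were chosen with earlier results of these data known. ATF4 protein was not measured in the files used here, and whether ATF4 had a part in these falls was not tested.

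Cholesterol synthesis genes had the largest share of lower genes among the metabolic lists, 76.0%. Of 25 tested 19 were lower, 2 of them by at least 2-fold, and none higher by edgeR, with a median log2 change of -0.55, and the lower count was 12 without sgNAT10 replicate 2 or 3. Fdps, which makes farnesyl diphosphate, had 318, 342 and 357 FPKM in wild-type and 213, 166 and 171 FPKM in sgNAT10 cells (log2 -0.93 ± 0.12, SE; adjusted p = 0.00116), and Lss, which closes the sterol rings, fell from 26.4 to 12.4 FPKM. Of 50 genes of fatty acid synthesis and lipid storage 19 were lower and 7 higher, with Fads1, a desaturase, at 76.1 and 36.4 FPKM; the lower count was 10 without sgNAT10 replicate 2 and 11 without replicate 3. Acsl6, an acyl-CoA synthetase, was gained, from 0.0467 to 5.87 FPKM.

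Fatty acid oxidation went the other way, with 13 of 32 genes higher and 6 lower. Cpt1c, a member of the carnitine palmitoyltransferase family, and Acads, of the oxidation of short chains, rose from 13.9 to 40.1 and from 23.5 to 45.2 FPKM. Glutathione and NRF2 genes were higher for 15 of 47 and lower for 4, with Gpx8 at 80.7 and 166 FPKM. Of 37 TCA cycle and glutamine genes 13 were lower and 3 higher: Gpt2, which makes alanine, fell from 77.2 to 19.7 FPKM and Pck2 from 83.9 to 29.1 FPKM, while Cs was not called at 114 and 111 FPKM. The lower count in this list was 8 without wild-type replicate 1, 7 without sgNAT10 replicate 2 and 8 without sgNAT10 replicate 3.

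Carbonic anhydrases, which interconvert carbon dioxide and bicarbonate, held large falls in Car9, Car6 and Car12. With ion pumps they made a list of 21 tested genes, 5 lower (23.8%, against 22.0% of all genes) and 2 higher. Car9, a membrane enzyme induced by hypoxia, had 89.9, 99.1 and 78.0 FPKM in wild-type and 1.91, 2.10 and 2.26 FPKM in sgNAT10 cells (log2 -5.50 ± 0.12, SE; adjusted p = 2.82e-06). The hypoxia-induced lactate carrier gene Slc16a3 fell from 47.8 to 2.79 FPKM and Adm, adrenomedullin, from 26.1 to 1.32 FPKM. These were single members: among 33 glycolysis and hypoxia genes tested, 7 were lower (21.2%) and 5 higher (15.2%). Those shares lay near the 22.0% and 15.9% of all genes, and the median log2 change of the list was 0.25. The glycolytic genes Pkm, Eno1 and Pgk1 were not called, with log2 changes of 0.09, 0.27 and 0.08, but were higher without sgNAT10 replicate 1, by 0.25, 0.46 and 0.37 (adjusted p = 0.00545, 0.000891 and 0.00459).

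Few transcripts were called as shifted against their gene. On simulated counts with the spread of these data, the test recovered 0% of 4-fold and 17% of 64-fold changes. A low count of calls therefore does not show that such shifts were few. Of 12906 transcripts of 5498 genes tested for a change in their share of the gene, 66 (0.511%) of 58 genes were called by edgeR, 31 with a higher and 35 with a lower share. At an unadjusted p under 0.05 there were 335, the shares of 17.8% of the transcripts did not overlap between the groups, and limma called 497 (3.85%), 44 of them among the 66. The shares are the authors' estimates and varied between replicates by a median SD of 9.07 percentage points; 49 of the 66 were listed at 0 in all 3 libraries of a group. Of the 66, 8 moved in the direction opposite to a called change of their gene.

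Tbx4, a T-box factor of hindlimb and lung mesenchyme, rose as a gene while its main wild-type transcript fell. Transcript ENSMUST00000108045 (7 exons) held 85.8%, 91.5% and 77.8% of the gene's counts in wild-type and 0.214%, 0.657% and 0.126% in sgNAT10 cells (adjusted p = 0.00380). Transcript ENSMUST00000108047 (9 exons), whose annotated start lies 10.3 kb upstream, held 3.67%, 8.46% and 15.9% and then 93.4%, 87.2% and 80.3% (adjusted p = 0.0442). The 2 transcripts thus exchanged places in every library, although the call for ENSMUST00000108047 was lost when any 1 library was left out (adjusted p of 0.0523 to 0.307) and that for ENSMUST00000108045 was kept.

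Atp11a, a phospholipid flippase, and Yeats2, a reader of histone marks, were the other genes of at least 5 FPKM with such a transcript. In Atp11a, lower as a gene by a log2 change of -0.63, transcript ENSMUST00000091237 held 0% in all 3 wild-type libraries and 32.2%, 20.9% and 31.4% in sgNAT10 cells (adjusted p = 4.19e-05). In Yeats2, higher by 0.51, transcript ENSMUST00000090052 held 37.9%, 38.2% and 6.86% and then 0% in all 3 libraries (adjusted p = 0.00665). The start sites of these transcripts and of the main transcript of the gene differ by 2 and 4 bases, and the wild-type values of Yeats2 were spread widely; its call was lost without wild-type replicate 1 or 2 (adjusted p = 0.0613 and 0.0583). The 5 others, in Prkch, Klhl13, Sgsm1, Slc25a14 and Erc2, belonged to genes under 5 FPKM and are named outside the rule.

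Other large changes in share were found in genes of at least 5 FPKM that fell or were not called. In Ltbp4, which binds latent TGF-beta, transcript ENSMUST00000038618 fell from 74.0%, 62.8% and 57.3% to 1.82%, 2.42% and 2.34% of the gene's counts (adjusted p = 1.4e-05); the remaining main transcript starts 4.03 kb downstream and was not called. In Palld, an actin-binding protein whose gene was not called, transcript ENSMUST00000121493 of 20 exons fell from 54.5%, 56.1% and 56.4% to 0% in all 3 libraries (adjusted p = 3.07e-06), and the transcript that remained has 12 exons and a start 169 kb downstream. In Pdgfra, a receptor of platelet-derived growth factor, transcript ENSMUST00000000476 fell from 54.6%, 68.9% and 48.3% to 0% (adjusted p = 4.81e-05), with the other start 3.59 kb downstream. For these 3 genes the transcript with the upstream start was the one that fell. Slc29a2 and Car6 completed, with Tbx4, the 6 largest changes among genes of at least 5 FPKM, and in these 3 the transcript that fell started downstream of the other, by 0.211, 2.86 and 10.3 kb; in Car6 the sgNAT10 shares rest on 10, 17 and 22 counts, and the call of the transcript that fell was lost without sgNAT10 replicate 2 or 3 (adjusted p = 0.0572 and 0.0588).

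**Figure D5:**
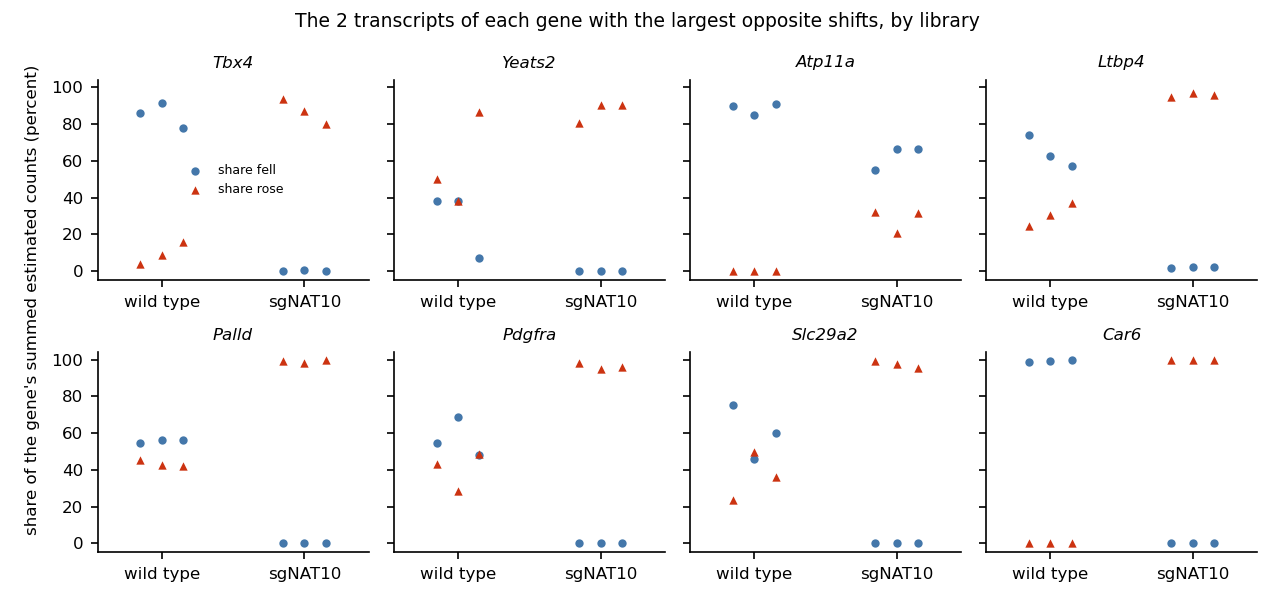
Share of the gene's summed estimated counts, in percent, held by the transcript that fell most (blue circles) and the transcript that rose most (red triangles) in 8 genes, for the 3 wild-type and 3 sgNAT10 TC1 cell libraries. In Tbx4 the 2 transcripts change places, and in Palld, Pdgfra and Slc29a2 a transcript present in wild-type cells is listed at 0 in all sgNAT10 libraries.

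Set beside the other sgNAT10 comparisons, most of the lost genes of TC1 cells differed from tumours made with TC1 cells. The test of the difference between the effect in tumours and in cells called 5833 of 20706 genes (28.2%); 34 of the 36 lost genes tested in it were called, and 17 of the 18 gained genes, a selection that favours large effects in the cells. In sgNAT10 tumours 26 lost genes were present at 1 FPKM or more, and 28 in wild-type tumours. Among 32 tested in tumours 5 were lower and 5 higher, where 9.72% of all genes were lower and 7.65% higher. No gained gene was called in tumours, of 14 tested, too few at these shares to read as a lack of change. Tumours hold host cells, so a level there is not that of the TC1 cells alone, and fewer cells of a type cannot be told apart from less RNA in each.

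Crabp1 measured 141, 108 and 76.6 FPKM in wild-type tumours and 56.9, 80.2 and 62.0 FPKM in sgNAT10 tumours, and in MCA205 cells 70.9, 68.4 and 65.4 and then 105, 105 and 97.1 FPKM. The sgNAT10 tumours thus held at least 56.9 FPKM of a transcript that was under 4 FPKM in the cultured sgNAT10 cells, and the effect on Crabp1 differed by 6.80 on the log2 scale (adjusted p = 3.02e-06). Hoxb9 was lower in tumours too, from a mean of 3.03 to 0.161 FPKM (adjusted p = 0.00202), and higher in MCA205 cells, from 3.90 to 8.17 FPKM. Bgn rose in tumours from 873 to 2000 FPKM (adjusted p = 0.0145) and Il1rl1 was not called there at 256 and 333 FPKM.

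The test of the difference between TC1 and MCA205 cells called 7289 of 20272 genes (36.0%). Of the 38 lost genes 34 were called in it; they were chosen for large effects in the same TC1 libraries, which favours such calls. Of 33 tested in MCA205 cells 11 were lower and 10 higher, where 19.4% of all genes were lower and 21.2% higher. Col5a2 and Sox2 fell in both lines, by log2 changes of -2.72 and -1.24 in MCA205 cells (adjusted p = 1e-06 and 4.83e-06), and the effect in TC1 cells minus that in MCA205 cells was -3.76 and -5.25. Col1a2 fell in MCA205 cells from 28.8 to 1.6 FPKM, and its effect was not called different between the lines (difference -1.67; adjusted p = 0.167). Asns, which fell in TC1 cells, was not called in MCA205 cells at 300.0 and 295 FPKM, and the difference was called (-2.05; adjusted p = 8.61e-06). Grem1 and Il1rl1 rose in MCA205 cells, from 47.3 to 144 and from 111 to 287 FPKM.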

How the data were processed

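RNA was extracted from wild-type and sgNAT10 TC1 cells, 3 libraries each. Per the submitters' processing notes, FastQC, Trim Galore, Bowtie2 and featureCounts were used with mm10; for the transcript values no program is named in the notes, and no strand setting. The authors deposited for each transcript an estimated count and an FPKM value, in tables made separately for TC1 cells, MCA205 cells and tumours. Whole-number counts and FPKM were summed for each gene identifier, 99.7% of which matched GENCODE M21. No column of per-sample values was left without a sample (0 columns).

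Counts were tested with edgeR 4.0.16 in R 4.3.3 (quasi-likelihood, TMM scaling, filterByExpr, Benjamini-Hochberg adjustment, threshold 0.05), transcript shares of at least 10% with its exon-level splicing test, and differences between comparisons with an interaction contrast over 12 libraries; alternatives used DESeq2 1.42.0 and limma 3.58.1 on log2(FPKM + 1) or log2(FPKM + 0.1). FPKM levels describe each gene, and fold changes of near-absent genes depend on the prior count. Depth was 51661298 to 59361779 estimated counts a library. On simulated data with 18290 genes for the TC1 comparison, 66% of 2-fold and 77% of 4-fold changes were recovered and 11.2% of calls were false. Only 100 genes were changed at each fold, all picked above a floor of mean count, whereas 37.9% of genes were called in the data. The false share depends on how many genes change, so these rates do not carry over to the real calls or to genes of low count. The simulated transcript test with the spread of these data recovered 0% of 4-fold and 17% of 64-fold changes among 11700 transcripts, so uncalled shares are not shown to be unchanged.

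The members, lists, loci and motif were chosen with earlier results of these data known. Named genes are, for each list, up to 6 called members with the largest log2 change, groups apart and at least 3 FPKM, and up to 3 uncalled members of highest FPKM; the 15 largest rises and falls of at least 10 FPKM; lost or gained genes on chromosome X or in a list; and transcripts by change in share. Genes of a stretch, Hoxb7 to Hoxb3, Col1a1, Yap1, Wwtr1, Aire, Atf4, Ddit3 and Slc7a7 were named after their values had been seen. Replicate numbers did not pair the samples: correlations of deviations were -0.074, -0.008 and 0.011.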

Additional observations from a re-analysis of the deposited data

Results flagged for a closer look

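Effects of sgNAT10 that differed between TC1 cells and the other comparisons, by the edgeR interaction test, are given here for 10 genes described above; the comparisons share the TC1 cell libraries. The effect in TC1 tumours minus that in TC1 cells, on the log2 scale, was 6.80 for Crabp1, 2.20 for Hoxb9, 5.84 for Sox2, 5.10 for Col5a2, 6.68 for Bgn, 6.24 for Grem1, 7.18 for Il1rl1 and 1.36 for Asns, genes that fell in the cells. It was -5.43 for Dbf4 and -4.37 for Sri, which rose in the cells.

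The effect in TC1 cells minus that in MCA205 cells was -8.27 for Crabp1, -7.60 for Hoxb9, -5.25 for Sox2, -3.76 for Col5a2, -5.97 for Bgn, -8.25 for Grem1, -8.28 for Il1rl1 and -2.05 for Asns. It was 4.84 for Dbf4 and 4.46 for Sri. Each of these differences passed an adjusted p of 0.05, with 3 libraries in each group. Only differences that passed were kept here, for genes picked after large effects in the same TC1 cell libraries, which favours such calls. Groups of 3 libraries are too small for a test of single outlying libraries.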

How the results depend on the processing

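Of 2694 values of the 194 genes named, 2624 kept their direction and their side of the threshold, 42 lost a call and 28 gained one. With the replicate number as a block, 2306 genes were higher and 3399 lower, interferon-stimulated genes higher numbered 15, matrix proteases and inhibitors higher 7, and transcripts called 11; the numbers do not pair the samples. Transcripts called numbered 220 with no share minimum, 32 with a minimum of 20% and 497 by limma. With a lower group under 1 FPKM there were 59 lost and 40 gained genes, and with a higher group of at least 10 FPKM 7 and 2. Of all calls 42.0% were higher with TMM scaling and 49.8% with DESeq2's size factors, which moved the median log2 change of all genes from -0.08 to -0.01.

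Leaving out 1 library at a time gave 2376 to 4322 higher and 2516 to 3801 lower genes, and lower counts of 10 to 14 for basement membrane genes, 7 to 11 for matrix proteases, 6 to 8 for WNT ligands and receptors, 8 to 13 for BMP and TGF-beta genes, 9 to 14 for cytokines, 7 to 13 for TCA cycle genes, 12 to 18 for transporters, 12 to 18 for cholesterol synthesis and 10 to 16 for fatty acid synthesis. Interferon-stimulated genes higher ranged from 16 to 44. Chromosome medians, an alternative chosen after seeing the data, ranged from 0.42 to 0.46 for chromosome 16, -0.30 to -0.27 for 17, 0.19 to 0.23 for 12 and -0.20 to -0.14 for 8. The cause of these shifts was not tested. Labels do not say that libraries were separate cultures, and transcript shares are estimates.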
